A study of Rattus norvegicus with 6 samples.

Results

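The enzymes that make prostaglandins, the enzyme and the carrier that remove them, and receptors for prostaglandin E2 were followed as a group of 10 rat genes in the colon of carcinogen-treated rats. The genes were Ptgs1, Ptgs2, Ptges, Ptgis, Hpgd, Hpgds, Ptger2, Ptger3, Ptger4 and Slco2a1, and a probe belonged to the group when its accession mapped to 1 of them. This gave 12 of the 30367 probes and 10 of the 15168 named genes on the array, with 2 probes each for Ptgs1 and Ptger3. Colon RNA came from 3 male rats of the Dahl salt-sensitive strain (S) and 3 male rats of the S.LEW(10)x12x2x3x5 strain (S.LEW congenic), an S strain with a short segment from the Lewis rat. All 6 rats ate a low salt diet (0.3% NaCl), were injected with azoxymethane (AOM), a colon carcinogen, 2 times at 15 mg per kg starting at 6 weeks, and were 30 weeks old at harvest. There was no group without AOM. The labels call each sample tumor-induced colon without saying whether a tumor lay in the piece used for RNA. Each rat had 1 single-color Agilent array. The S.LEW congenic rats are named C1, C2 and C3 and the S rats S1, S2 and S3.

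Prostaglandins are short-lived lipid signals made from arachidonic acid, which phospholipases free from membranes. The cyclooxygenases Ptgs1 and Ptgs2 turn it into prostaglandin H2, and terminal synthases then make prostaglandin E2 (Ptges), prostacyclin (Ptgis) or prostaglandin D2 (Hpgds). The carrier Slco2a1 takes prostaglandins into cells, and Hpgd oxidizes them there to inactive products. Prostaglandin E2 acts through G protein-coupled receptors, of which Ptger2 and Ptger4 raise cAMP and Ptger3 mostly lowers it. In the intestine Ptgs2 is known as the inducible cyclooxygenase of tumors and Hpgd as an enzyme of the normal surface epithelium.

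Signals are given as log2 intensity after quantile normalization, which gives every array the same distribution. A probe was tested when it was well above background on at least 3 of 6 arrays, and 23974 probes, 11 of them in the group, passed. The median spot intensity before normalization was 273 in C1, 214 in C2, 291 in C3, 594 in S1, 219 in S2 and 445 in S3. The array of S2 stood apart from those of the other S rats. Across tested probes it correlated at 0.900 with S1 and 0.936 with S3 but at 0.976 with C1, 0.967 with C2 and 0.967 with C3, and S1 correlated with S3 at 0.980. Fold changes of the named genes, the sizes of Hpgds and Slco2a1 and the list medians are therefore given with and without S2. Because S2 was singled out by its values, which lay near the congenic arrays, a fit without it has a smaller S variance by choice. Most strain differences are also widened by that choice. The sizes and p of such a fit are a description and not a test. By the scan identifier in the file headers, C1 shared a scan with all 3 S rats, and C2 and C3 shared another. A scan is here taken as a slide, inferred from this identifier alone. Any value within a slide thus compares C1 alone with the S rats. With 3 rats against 3, an exact permutation test reaches a p of 0.10 at best, so precision is low for every value.

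**Figure D1:**
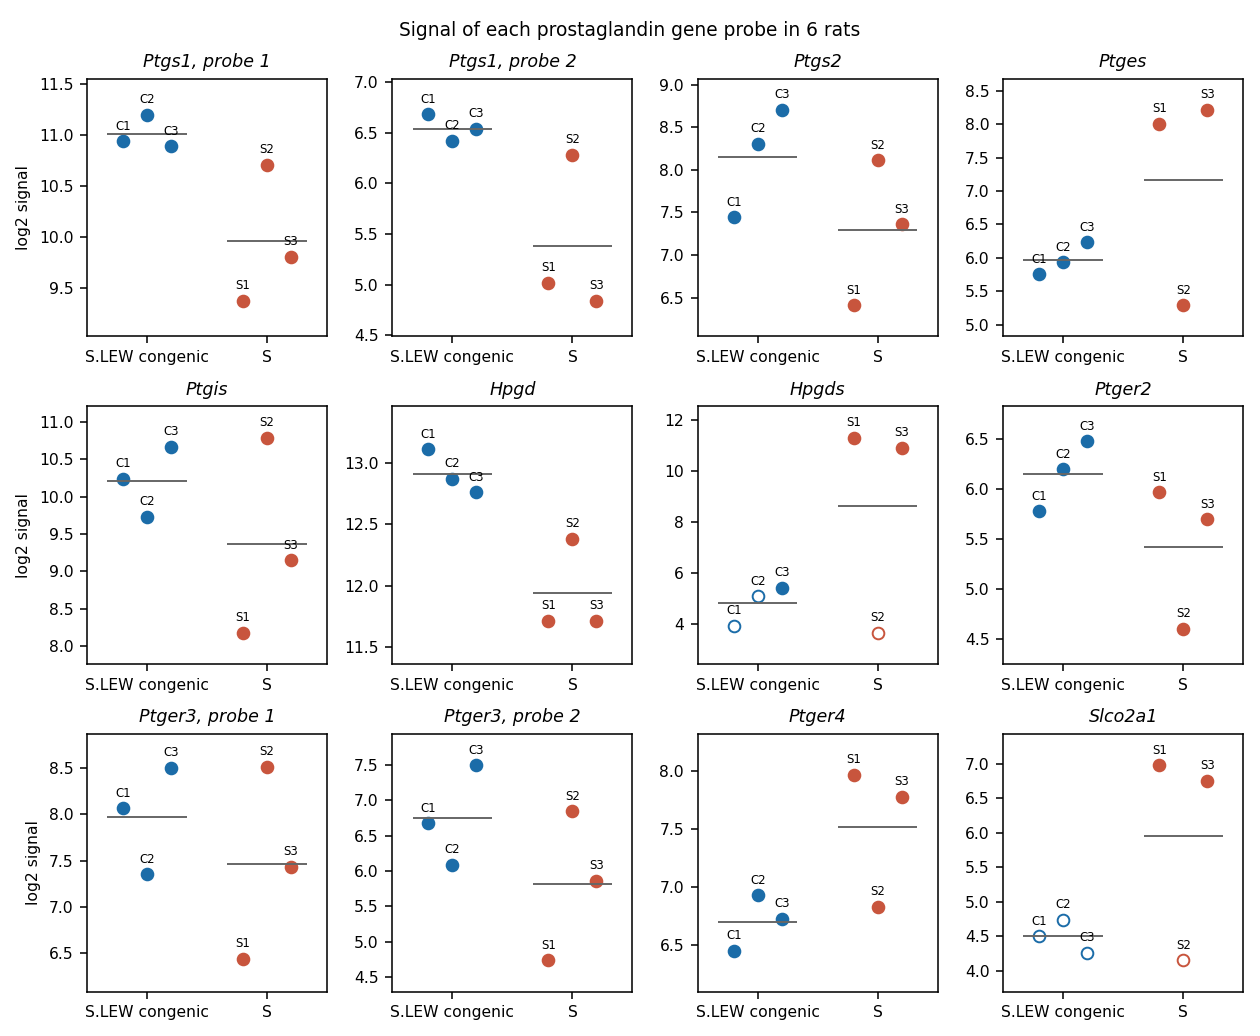
Log2 signal (vertical axes, each with its own range) of the 12 probes in the S.LEW congenic rats (blue) and the S rats (red), with 1 point per rat and a line at each strain mean and open points where not well above background. S2 lay apart from S1 and S3 in most panels, as for Hpgds at 11.30 (S1), 10.89 (S3) and 3.65 (S2).

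Ptgs1, the cyclooxygenase present in most tissues, was higher in the S.LEW congenic rats at both of its probes. At the first probe the log2 signal of C1 was 10.94, of C2 11.20 and of C3 10.89, against 9.38 for S1, 10.71 for S2 and 9.81 for S3. The second probe read 6.68, 6.42 and 6.54 in C1, C2 and C3 and 5.02, 6.28 and 4.84 in S1, S2 and S3. At both probes every congenic rat lay above every S rat, and S2 lay just below the congenic rats while S1 and S3 were far lower. The log2 fold change, S.LEW congenic minus S, was 1.05 at the first probe (standard error 0.35, limma adjusted p = 0.341) and 1.17 at the second (standard error 0.395, limma adjusted p = 0.342). An exact permutation test, two-sided, gave p = 0.10 for each, the smallest possible. Both probes passed an unadjusted p of 0.05 with a 2-fold change, the cut-offs of the study, at which a probe is here said to be called. Without S2 the log2 fold changes were 1.42 and 1.62. With any other rat left out the limma adjusted p of the first probe lay between 0.558 and 0.865. Both calls ended without C1 (1.08 and 1.1), without S1 (0.75 and 0.99) and without S3 (0.97 and 0.89), that of the first probe also without C2 (0.95) and that of the second also without C3 (1.17). They also ended with the slide as a block or within the slide of both strains (0.97 and 1.30), with normexp background correction (1.0 and 0.51) and with the methods' t-test, whose p was 0.060 and 0.0643 where limma gave 0.0235 and 0.0237 and the exact test 0.10 for both. With arrays scaled to their 75th percentile the second probe was at 1.07 and no longer called.

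Of the 11 tested probes in the group, the 2 of Ptgs1 were called higher in the congenic rats, where 775 of 23974 probes (3.23%) were called higher, and 0 were called lower, where 563 (2.35%) were. Scaled to their 75th percentile, the arrays gave 692 probes higher and 760 lower instead. The 2 probes read the same gene and are not independent. The strains did not overlap at 3 of the 11 probes, those of Ptgs1 and that of Hpgd, all higher in the congenic rats, while the strains lay apart in this direction at 12.4% of all probes and in the other at 5.30%. By the brightest probe of each gene, 1 of 9 tested genes was called higher, against 470 of 12397 genes (3.79%), and 0 lower, against 326 (2.63%). No probe of the array passed an adjusted p of 0.05 with limma (smallest 0.101, with 3108 probes under an unadjusted 0.05) or with the methods' t-test (2585 under an unadjusted 0.05). Without S2, limma gave an adjusted p under 0.05 to 3007 probes higher (12.5%) and 2555 lower (10.7%) in the congenic rats, and to 4 probes higher and 3 lower in the group, from 6 of its genes. With each other rat left out in turn, no member probe passed it. The 3 lower ones without S2 include Hpgds, which 2 of 3 congenic arrays did not measure.

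Ptgs2 varied among the rats of each strain. C1 read 7.44, C2 8.30 and C3 8.70 on the log2 scale, and S1 6.41, S2 8.11 and S3 7.36. The strains overlapped, since C1 lay below S2. This gave a fold change of 0.85 on the log2 scale (standard error 0.51, limma adjusted p = 0.477), with a 95% interval from -0.39 to 2.09, so that neither a difference of 0 nor one above 2-fold lay outside it. Without S2 it was 1.26 and without S1 0.41. Within the slide of both strains and with the slide as a block it was 0.14.

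The starts of 8 of the 10 genes matched RefSeq's promoter table for the GRCr8 assembly, in which each sequence covers 300 bases around the start, and those of Ptgis and Hpgds did not. Promoters of 5 genes are shown because these genes fell into contrasting patterns over the rats: Ptgs1 and Hpgd kept the strains apart, Ptges and Slco2a1 were high in S1 and S3, and Ptgs2 is the inducible partner of Ptgs1. They lie at chr3:39981169-39981468, plus strand (Ptgs1), at chr13:64713813-64714112, plus strand (Ptgs2), at chr16:39034782-39035081, minus strand (Hpgd), at chr3:34586938-34587237, minus strand (Ptges) and at chr8:112467489-112467788, plus strand (Slco2a1), and are written 5′ to 3′ in the direction of the gene. Capitals mark matches to 7 motifs on either strand, described after the sequences.
Ptgs1: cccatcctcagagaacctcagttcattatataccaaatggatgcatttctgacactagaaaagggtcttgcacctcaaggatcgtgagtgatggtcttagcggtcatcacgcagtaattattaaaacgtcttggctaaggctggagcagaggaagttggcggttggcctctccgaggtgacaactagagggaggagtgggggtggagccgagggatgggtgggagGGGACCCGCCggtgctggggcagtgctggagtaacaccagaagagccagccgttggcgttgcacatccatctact
Ptgs2: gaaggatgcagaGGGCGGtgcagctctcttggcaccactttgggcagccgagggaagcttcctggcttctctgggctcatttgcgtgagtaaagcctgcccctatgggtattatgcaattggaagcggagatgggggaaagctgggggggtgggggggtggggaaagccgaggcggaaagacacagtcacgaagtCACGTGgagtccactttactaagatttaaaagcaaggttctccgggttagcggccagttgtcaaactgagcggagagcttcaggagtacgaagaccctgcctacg
Hpgd: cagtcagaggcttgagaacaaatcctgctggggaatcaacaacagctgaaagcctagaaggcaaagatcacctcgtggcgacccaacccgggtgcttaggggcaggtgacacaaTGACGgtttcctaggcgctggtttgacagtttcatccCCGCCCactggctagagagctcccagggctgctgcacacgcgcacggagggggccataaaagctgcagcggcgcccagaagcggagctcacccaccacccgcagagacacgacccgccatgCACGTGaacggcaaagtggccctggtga
Ptges: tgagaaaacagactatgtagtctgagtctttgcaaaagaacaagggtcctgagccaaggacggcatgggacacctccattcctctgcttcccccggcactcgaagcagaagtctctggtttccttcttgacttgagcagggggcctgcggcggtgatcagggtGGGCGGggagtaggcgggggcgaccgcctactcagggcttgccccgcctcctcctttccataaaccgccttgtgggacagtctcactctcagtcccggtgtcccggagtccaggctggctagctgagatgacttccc
Slco2a1: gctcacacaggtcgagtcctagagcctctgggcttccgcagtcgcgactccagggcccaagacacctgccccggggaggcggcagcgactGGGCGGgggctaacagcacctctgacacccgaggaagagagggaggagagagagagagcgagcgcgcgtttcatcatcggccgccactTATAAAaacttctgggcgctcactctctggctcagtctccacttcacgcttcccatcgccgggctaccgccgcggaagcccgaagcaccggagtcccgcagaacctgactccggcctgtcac

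The motifs searched were the TATA box TATAAA, the core of the cAMP response element TGACG, the Sp1 box GGGCGG, the NF-kappa B site (GGGA and CC with any 4 bases between), the AP-1 site TGANTCA, the E-box CACGTG and the CArG box of muscle genes. Matches did not overlap one another in the sequences shown. Among the 8 promoters, 1 held TATAAA, 1 TGACG, 5 GGGCGG, 3 an NF-kappa B site, 2 CACGTG, 0 TGANTCA and 0 a CArG box. Of the 33469 promoters in the table, 14.2% held TATAAA, 21.2% TGACG, 33.1% GGGCGG, 19.3% an NF-kappa B site, 6.42% CACGTG, 7.33% TGANTCA and 1.64% a CArG box. The TATA box stood in the promoter of Slco2a1 with its first base at position -72 from the start, and the E-boxes in those of Ptgs2 (-55) and Hpgd (23). The promoter of Ptgs1 held a single match, to the NF-kappa B letters at -25, that of Ptges a single Sp1 box at -87, and that of Hpgd also the cAMP response core at -136 and an Sp1 box at -99. A match is a run of letters and not a measured binding site.

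The terminal synthases differed in pattern. Ptges, the inducible synthase of prostaglandin E2, read 5.75, 5.93 and 6.23 on the log2 scale in C1, C2 and C3, but 8.0 in S1 and 8.21 in S3 with 5.29 in S2. S1 and S3 lay far above the congenic rats, and S2 lay below all of them. The log2 fold change was -1.20 (standard error 0.77, limma adjusted p = 0.497), with a 95% interval from -3.05 to 0.65. Without S2 it was -2.14, without S1 -0.78 and without S3 -0.67. The value within the slide of both strains and with the slide as a block was -1.42.

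Hpgds, the synthase of prostaglandin D2 in blood-derived cells, had the widest range of the 10 genes, 7.64 on the log2 scale. It read 11.30 in S1 and 10.89 in S3 but 3.65 in S2, and 3.93 in C1, 5.08 in C2 and 5.42 in C3. The probe was well above background on 1 of 3 congenic arrays, that of C3, and on 2 of 3 S arrays, those of S1 and S3. Mean and SD of 3 rats were 4.81 ± 0.78 for the congenic strain and 8.61 ± 4.30 for the S strain, with 3 of the 6 values, those of S2, C1 and C2, not well above background. The limma fit, which takes dim readings as they are, gave -3.80 (standard error 2.0, limma adjusted p = 0.438), and for the reason just given its size is not used. Where a congenic array did not measure a gene, the fit was replaced by the following comparison. Each congenic array took its own value or the dimmest reading that still counted as well above background there, whichever was higher, and the mean was set against that of the S rats. A probe can read above that dimmest value and still not count as well above background. The rule therefore gives an approximate size and not a strict bound. With S2, itself not measured, taken as it read, the congenic mean of Hpgds was 11-fold lower by this rule. This came through S1 and S3 alone and without a test that passed in all 6 rats. It is no bound, also because a lower true level in S2 would make it smaller. Without S2, where S1 and S3 were both measured, the congenic mean was 61.4-fold lower by the same rule. With S2 as it read, the value was 4.34-fold without S1 and 5.01-fold without S3. Within the slide of both strains the lone congenic rat, C1, was not measured.

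Ptgis, the prostacyclin synthase of vessel walls and smooth muscle, had the opposite order among the S rats. The congenic rats read 10.24 (C1), 9.73 (C2) and 10.67 (C3), and the S rats 8.18 (S1), 10.79 (S2) and 9.15 (S3). S2 held the highest value of the 6 rats and S1 the lowest, so that the strains overlapped. The log2 fold change was 0.84 (standard error 0.66, limma adjusted p = 0.555), and it was 1.55 without S2, 0.24 without S1 and 0.87 within the slide of both strains and with the slide as a block.

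Hpgd, the enzyme that inactivates prostaglandins, kept the strains apart, with all congenic rats above all S rats. C1 read 13.11, C2 12.87 and C3 12.76, whereas S1 and S3 both read 11.71 and S2 12.38. S2 again lay closest to the congenic rats, though below them. On the log2 scale the fold change was 0.98, or 1.97-fold (standard error 0.25, limma adjusted p = 0.273), just under the 2-fold cut-off, with an exact permutation p of 0.10. It reached the cut-off and was called with the 75th percentile scaling (1.01), without C3 (1.05), without S2 (1.20) and with the slide as a block or within the slide of both strains (1.17). With the other rats left out in turn it lay between 0.86 and 1.0.

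Slco2a1, the uptake carrier, was not tested because only the arrays of S1 and S3 were well above background. S1 read 6.98, S3 6.75 and S2 4.15, and C1, C2 and C3 read 4.50, 4.74 and 4.26. As for Hpgds, S1 and S3 were high, and the readings of the other rats are too dim to be ranked among themselves. By the rule used for Hpgds, Slco2a1 in the congenic rats was 1.88-fold lower with S2 taken as it read. S2, itself not well above background, is part of that mean, so this is no bound either. Without S2 the congenic mean was 3.51-fold lower by this rule. With S2 as it read, the value was 1.32-fold without S1 and 1.43-fold without S3.

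Among the receptors, Ptger4 was lower in the congenic rats in the mean. The values were 6.45, 6.93 and 6.73 for C1, C2 and C3 and 7.97, 6.83 and 7.78 for S1, S2 and S3. S2 lay between the congenic rats, while S1 and S3 lay above them. The log2 fold change was -0.82 (standard error 0.34, limma adjusted p = 0.384), short of 2-fold, with p = 0.20 in the exact permutation test where limma gave an unadjusted 0.0483, and without S2 it was -1.17. It was -1.08 within the slide of both strains and with the slide as a block.

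Ptger3 was read by 2 probes that ranked the rats in nearly the same way. The first gave 8.06, 7.35 and 8.50 in C1, C2 and C3 and 6.44, 8.51 and 7.43 in S1, S2 and S3, and the second 6.67, 6.09 and 7.49 and then 4.74, 6.84 and 5.86. S1 was the lowest rat at both, and the strains overlapped at both. The log2 fold changes were 0.51 (standard error 0.56, limma adjusted p = 0.668) and 0.94 (standard error 0.60, limma adjusted p = 0.494). They were 1.03 and 1.45 without S2, -0.0020 and 0.40 without S1, 0.82 and 1.26 without C2, 0.24 and 0.57 without C3, and 0.60 and 0.86 within the slide of both strains and with the slide as a block.

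Ptger2 read 5.78, 6.20 and 6.48 in the congenic rats C1, C2 and C3, beside 5.97, 4.60 and 5.70 for S1, S2 and S3. S2 was the lowest of the 6 rats, and C1 lay below S1. The difference in means was 0.73 on the log2 scale (standard error 0.40, limma adjusted p = 0.448), 0.32 without S2, and 0.35 within the slide of both strains and with the slide as a block. Without S1 it was called at 1.0. Unlike the other members, Ptger2 came closer to 0 when S2 was left out.

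**Figure D2:**
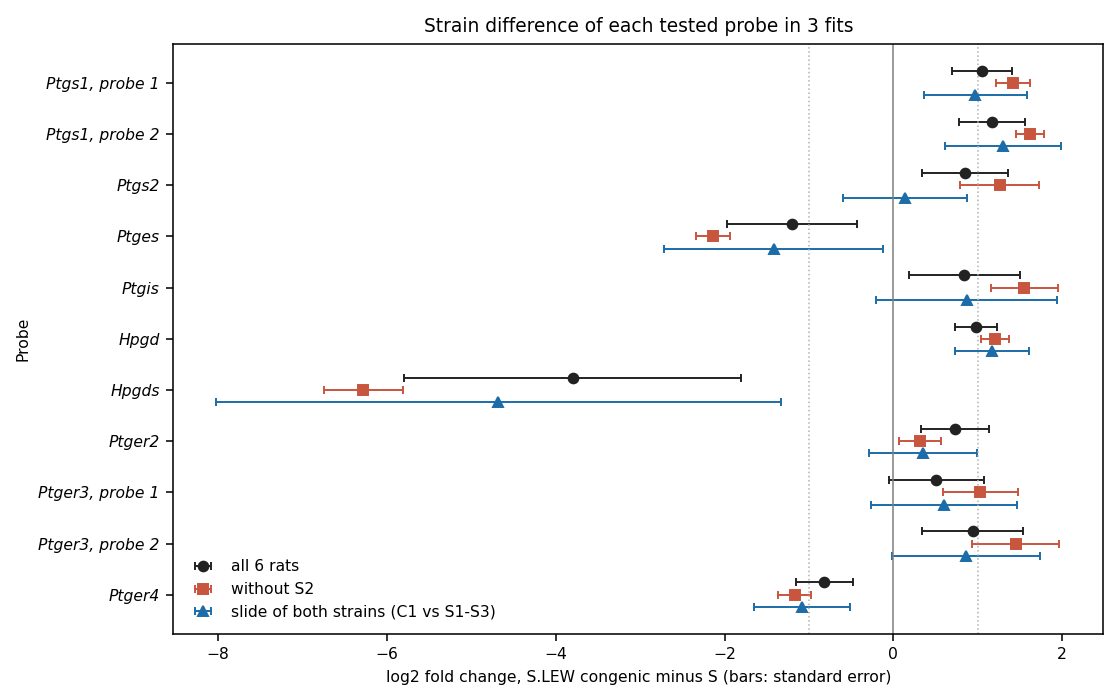
Log2 fold change, S.LEW congenic minus S (horizontal axis), of the 11 tested probes with all 6 rats (black circles), without S2 (red squares) and on the slide of both strains, C1 against S1, S2 and S3 (blue triangles), with bars for limma standard errors and dotted lines at 2-fold. Without S2 the value moved away from 0 for every probe but that of Ptger2, as from -1.20 to -2.14 for Ptges, and the bars were shorter. S2 was set aside for its likeness to the congenic rats, so such a widening follows in part from that choice. The circle and square of Hpgds rest on 3 measured arrays. Its triangle rests on those of S1 and S3 alone, with no measured congenic array.

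The wider pathway was described by 7 further lists, with 1 probe per gene, the brightest. Among their 61 tested genes the calls were 3 higher in the congenic strain, Cbr1, Ptgr1 and Dpep1, and 1 lower, Ccl2, where 3.79% of all tested genes were called higher and 2.63% lower. The pathway counts lie near these shares. Over all 12397 tested genes the median log2 fold change was 0.03. The release of arachidonate had 10 tested genes, none called, with a median log2 fold change of -0.01. Its gene of largest size, the phospholipase Pla2g10, lay at 9.29 in S1, while the other 5 rats lay between 10.36 and 11.24. Its log2 fold change was 0.77 (standard error 0.41, limma adjusted p = 0.446), 0.36 without S1 and 0.99 without S2.

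Of 7 other prostanoid synthases, 1 was called higher and 0 lower, with a median log2 fold change of 0.41. Cbr1, a carbonyl reductase that converts prostaglandin E2 to prostaglandin F2 alpha and also reduces xenobiotics, read 14.97, 14.46 and 14.74 on the log2 scale in C1, C2 and C3, beside 13.55, 13.62 and 13.18 for S1, S2 and S3. The strains lay clearly apart, and here S2 was close to S1 and S3. It had a fold change of 1.27 on the log2 scale (standard error 0.22, limma adjusted p = 0.203), 1.36 without S2 and 1.52 with the slide as a block or within the slide of both strains, and it was called with every rat left out in turn (1.14 to 1.40). Of 5 other prostanoid receptors, 0 were called and the median was 0.38, with 0.17 without C3 and 0.59 without C2. Ptgdr2, a prostaglandin D2 receptor, had 7.25, 6.20 and 7.17 in C1, C2 and C3 and 5.98, 6.75 and 5.31 in S1, S2 and S3, a log2 fold change of 0.86 (standard error 0.45, limma adjusted p = 0.436) with overlap. It was called at 1.23 without S2 and at 1.20 without C2, and was at 0.51 without S3.

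Of 6 genes for prostanoid breakdown and transport, 1 was called higher and 0 lower, with a median log2 fold change of 0.63, and 0.53 with the slide as a block. Ptgr1, a reductase that completes the breakdown begun by Hpgd and that also inactivates leukotriene B4, read 11.19, 10.71 and 11.39 on the log2 scale in C1, C2 and C3, against 9.88 for S1, 8.39 for S2 and 7.95 for S3. Every congenic rat was above every S rat, and among the S rats it was S1, not S2, that came closest. Its log2 fold change was 2.35 (standard error 0.51, limma adjusted p = 0.242), 2.18 without S2, 2.92 without S1, 1.96 without S3 and 2.44 with the slide as a block. Hpgd and Ptgr1, which act in sequence, both had non-overlapping strains, as did 1762 of all 12397 tested genes in this direction and 616 in the other. The related reductases Ptgr2 and Ptgr3, named after their values were seen, lay at 0.74 and 0.55 on the log2 scale (standard errors 0.202 and 0.166) without overlap, and the efflux pump Abcc4 gave -0.47 (standard error 0.18) without overlap, all short of 2-fold. Without S2 these 3 were at 0.82, 0.61 and -0.44. The strains overlapped at the other carriers of the list, Slco2b1 (0.02, and -0.33 without S2) and Slco3a1 (0.71, and 1.13 without S2).

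The lipoxygenase pathway makes leukotrienes from the same arachidonate. Of its 12 tested genes 1 was called higher and 0 lower, with a median log2 fold change of -0.02. Dpep1, a dipeptidase that converts leukotriene D4, read 12.06, 11.51 and 11.44 on the log2 scale in C1, C2 and C3, and 10.41, 9.67 and 9.46 for S1, S2 and S3. All congenic rats were above all S rats, with a log2 fold change of 1.83 (standard error 0.315, limma adjusted p = 0.203), 1.74 without S2, and a range of 1.63 to 2.11 over the fits that left out 1 rat. The genes Alox15, Alox15b, Cysltr1, Cysltr2 and Ltb4r were on the array but too dim to be tested.

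Inflammatory mediators, several of which induce Ptgs2 and Ptges in other settings, had 11 tested genes, 0 called higher and 1 lower, with a median log2 fold change of -0.69. Ccl2, a monocyte chemokine, had 6.50, 7.47 and 7.37 in C1, C2 and C3 and 9.10, 8.23 and 9.32 in S1, S2 and S3. The strains did not overlap, and the log2 fold change was -1.77 (standard error 0.391, limma adjusted p = 0.244), -2.10 without S2 and -2.39 with the slide as a block. Averaged over the genes of this list, the log2 deviation from the mean of all rats was 0.54 for S1 and 0.81 for S3. S2 was at -0.31, between the congenic rats (-0.43 to -0.21). Without S2 6 of the 11 genes were called lower, in a fit that called 8.26% of all genes lower, and the median was -1.08. Without S3 it was -0.39. Of 10 genes that respond to cAMP, the messenger of Ptger2 and Ptger4, 0 were called and the median was -0.26, with -0.51 without S1 and -0.13 without C1. Without S2 this median was at 0 to 2 decimals, with 1 gene called lower. Nr4a3, a nuclear receptor induced by cAMP, had 6.21, 7.50 and 7.57 in C1, C2 and C3 and 7.14, 9.24 and 8.29 in S1, S2 and S3, a log2 fold change of -1.13 (standard error 0.61, limma adjusted p = 0.447). Without S2 the medians were -0.03 for arachidonate release, 0.36 for the other synthases, 0.33 for the other receptors, 0.72 for breakdown and transport and 0.15 for the lipoxygenase pathway, beside 0.07 for all genes. Some tested genes, such as Cxcl1 with no congenic array well above background, were not measured in every rat. Over genes measured on all 6 arrays the medians were 0.61 for the 6 other synthases, 0.20 for 8 lipoxygenase genes, -0.74 for 10 inflammatory mediators and -0.17 for 9 cAMP genes. Nr4a3 was called at -1.67 without S1 and at -2.02 with the slide as a block, and was at -0.69 without C1 and -0.62 without S2.

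**Figure D3:**
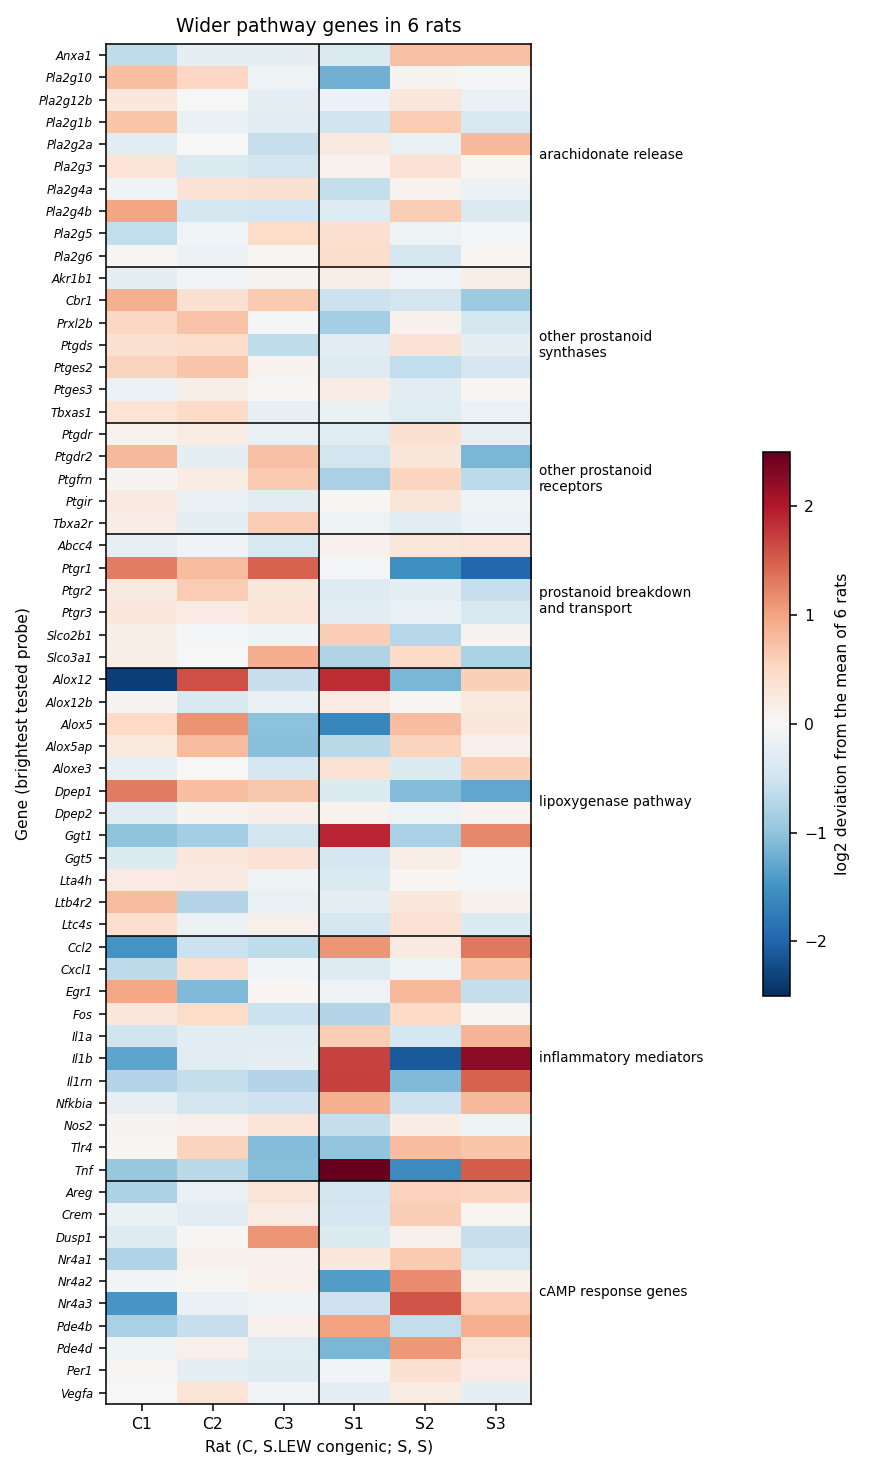
Log2 signal of the 61 tested genes of the 7 wider pathway lists in each rat, as the deviation of the gene's brightest probe from its mean over the 6 rats (red above, blue below, color scale limited to 2.5 either way). Ptgr1, Dpep1 and Cbr1 were high in all congenic rats, whereas Tnf, Il1b and Il1rn among the inflammatory mediators were high in S1 and S3 only.

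Markers of the cells in the colon were read on the same arrays, and in such bulk tissue fewer cells of a type and less RNA per cell cannot be told apart. All 6 tested lymphocyte genes were lower in the congenic mean, and 4 of them were called lower, with a median of -3.10. Their summed signal was 62000 in S1 and 44700 in S3 but 1260 in S2, with 1640, 1470 and 1440 in C1, C2 and C3. Cd3d, the brightest of them by mean signal over the rats, read 10.00, 9.47 and 9.47 in C1, C2 and C3 and 11.20, 9.72 and 11.25 in S1, S2 and S3. Cd2, Cd3e and Cd79b were well above background on no congenic array and only on those of S1 and S3 among the S rats. S1 and S3 were thus the rats high in lymphocyte genes and also in Hpgds, Ptges, Slco2a1, Ptger4 and the list of inflammatory mediators, and the part of these cells in those values was not tested. Without S2 the lymphocyte median was -5.00 and all 6 genes were called lower, in a fit that called 8.26% of all genes lower. All 4 calls were lost with the slide as a block (median -3.08), with the methods' t-test, with no filter and without any 1 rat other than S2, the median lying at -2.06 without S1. Of the 5 genes measured on all 6 arrays 3 were called.

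Smooth muscle markers ran the other way. The 7 tested genes had a median log2 fold change of 0.92, all above 0, with 1 called higher, Smtn. Summed, they came to 584000, 606000 and 656000 in C1, C2 and C3, and to 190000, 683000 and 389000 for S1, S2 and S3. Actg2, the brightest, read 17.53, 17.56 and 17.62 among the congenic rats and 16.19, 17.62 and 17.18 for S1, S2 and S3. The same order, S1 lowest, S3 next and S2 near or above the congenic rats, was seen in Ptgis and at the first Ptgs1 probe, and S1 was also the lowest rat for Ptger3 and Ptgs2. At the second Ptgs1 probe S3 was the lowest rat (4.84), just below S1 (5.02). The fibroblast list also had S1 lowest, S3 next and S2 above the congenic rats, with sums of 19300 (S1), 28300 (S3) and 61900 (S2). The part of smooth muscle or of fibroblasts in these values was not tested. Without S1 the median of the list was 0.31, and without S2 it was 1.5. The call of Smtn was lost with the slide as a block (median 0.82), with the methods' t-test, with 75th percentile scaling, with no filter, with the replicate block and without any 1 rat other than S2.

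The 7 epithelial markers had a median log2 fold change of 0.81, all above 0, with 1 called higher, Vil1. Their summed signal was 133000, 118000 and 87600 in C1, C2 and C3, with 54000, 74600 and 66000 for S1, S2 and S3, and all 7 were well above background in every rat. Krt19, the brightest, read 15.16, 14.80 and 14.29 among the congenic rats and 13.40, 14.08 and 13.98 for S1, S2 and S3. Surface colonocyte markers, 7 tested with 2 called higher and 0 lower, had a median of 0.83, while 1 of them, Aqp8, kept the strains apart in the other direction at -1.0, just short of 2-fold (-0.91 without S2), and was called lower without C1, C2 or S1. Their summed signal was 127000, 87500 and 103000 in C1, C2 and C3 and 60700, 34400 and 33500 in S1, S2 and S3, and the brightest, Guca2a, read 15.16, 14.78 and 14.96 and then 14.90, 13.68 and 13.83. Hpgd, Ptgr1 and Cbr1 lay in the same direction as these epithelial lists. What the epithelial share contributed to them was not tested. With the slide as a block the medians were 1.08 for epithelium and 1.03 for surface colonocytes, and without S2 they were 0.94 and 0.61. The call of Vil1 was lost without C1, C2 or S1 and with normexp, and of the 2 colonocyte calls that of Slc26a3 (1.07) was lost without C1 (0.83), C2 (0.97) or S2 (0.98).

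Macrophage, mast cell and fibroblast markers were less uniform. Of 8 tested macrophage genes 2 were called higher and 1 lower, with a median log2 fold change of -0.11 and summed signals of 5840, 7440 and 8120 in C1, C2 and C3 and 17900, 4880 and 14300 in S1, S2 and S3. The median changed sign without S1 (0.07) and without S3 (0.09), and with the slide as a block it was -0.48 with 0 calls. The lower call was lost with the methods' t-test and without any 1 rat other than S2. Without S2, 2 genes were called higher and 4 lower, in a fit that called 11.3% of all genes higher and 8.26% lower. C1qb, the brightest of these, read 11.04, 11.40 and 11.71 and then 12.99, 10.88 and 12.63. Of the mast cell genes, Cma1, Cpa3, Fcer1a, Ms4a2 and Tpsab1 were well above background on no congenic array, so that calls and a median of this list would rest on readings that are not measurements, and none are given. Each S rat, S2 included, gave a measured value for Cma1, Cpa3, Ms4a2 and Tpsab1, while Fcer1a was measured in S1 and S3 only. Cma1 read 8.34, 5.40 and 8.00 in S1, S2 and S3. By the rule used for Hpgds, the congenic means of Cma1 and Cpa3 were 4.56-fold and 1.43-fold lower. For Ms4a2 and Tpsab1, at 4.52 to 5.65 in the S rats, the rule gave no value. Only Kit was measured on all 6 arrays. Kit, which is also made by other cells of the gut wall, read 9.14, 8.89 and 9.94 and then 7.91, 9.15 and 7.85, with S2 among the congenic rats, and was not called. Mast cells and macrophages are known sources of prostaglandin D2 synthase, and their part in the Hpgds values was not tested. The 7 fibroblast genes had a median of 0.23 and 0 calls, with sums of 35100, 39300 and 52400 among the congenic rats and 19300, 61900 and 28300 for S1, S2 and S3, and Col3a1 at 14.26, 14.48 and 14.76 and then 13.02, 15.11 and 13.87. Without S2 the medians were -0.58 for macrophages and 0.57 for fibroblasts, and with the slide as a block that of fibroblasts was 0.01.

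**Figure D4:**
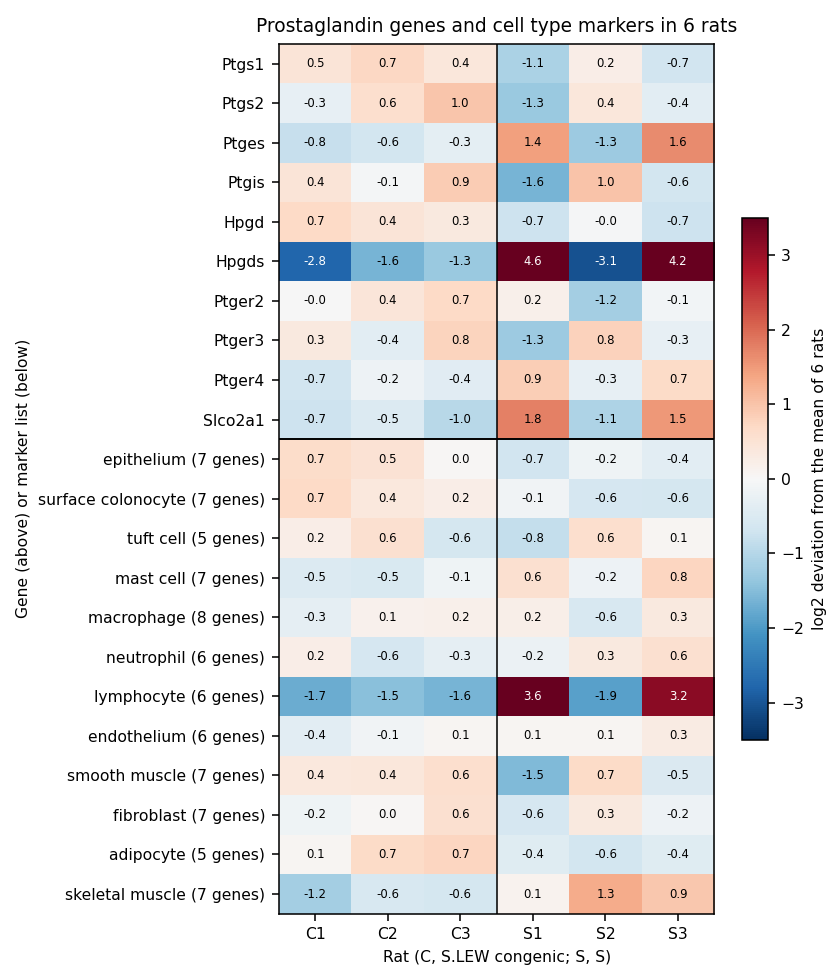
Log2 deviation from the mean over the 6 rats for the brightest probe of each prostaglandin gene (above) and averaged over the tested genes of each cell type list (below), with each value printed in its cell and the color scale limited to 3.5 either way. The lymphocyte list, at 3.56 (S1), 3.17 (S3) and -1.89 (S2), shared its pattern over the rats with Hpgds, Ptges and Slco2a1.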

How the data were processed

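RNA of 6 rat colons was read on 1 single-color array each. The authors extracted spot intensity with Agilent Feature Extraction 11.0.1.1 per the file headers and the submitters' processing notes, and the deposited scanner files give background-corrected intensity. The authors also deposited log2 values, quantile-normalized in GeneSpring, for 23997 probes, used here as an alternative, which correlated at 0.9999 or more with the values used here on every array.

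Control spots and spots flagged as outliers (274 to 419 an array) were left out, log2 intensities were averaged per probe and the arrays quantile-normalized. The strain contrast was fitted in R 4.3.3 (limma 3.58.1) over 23974 probes with Benjamini-Hochberg adjustment. The cut-offs, an unadjusted p of 0.05 with a 2-fold change, were those of the study. The methods' t-test, pooling the variances of unpaired groups, used these values too. The test was checked on simulated data that gave both strains the same normal spread at each probe. This check does not cover probes such as that of Hpgds, where the S rats spread far more than the congenic rats. Accessions were matched to RefSeq genes of GRCr8, which named 18005 of 30367 probes. Tables were made with pandas 2.3.3 and scipy 1.17.1 and plots with matplotlib 3.10.9.

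The members, the 7 pathway lists and the 12 marker lists were chosen with earlier results of these data known, and the promoters and motifs were chosen after seeing the data. The text names all 10 members, of each pathway list the called genes or else the gene with the largest log2 fold change, of each marker list the brightest gene, and the 3 genes most like each of the 3 members of widest range. Genes named beyond this were chosen after their values were seen. Other settings tried were the deposited values, arrays scaled to their 75th percentile, no filter or one on all 6 arrays, normexp (offset 50) on the median signal, outlier spots kept, the methods' t-test, a block for slide or for replicate number, only the slide of both strains, and each rat left out.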

Additional observations from a re-analysis of the deposited data

How the results depend on the processing

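Over the members and the pathway genes named by rule, 252 of 287 values of single probes under another setting kept the direction and the side of the cut-offs, 17 no longer passed, 17 newly passed and 1 reversed, that of the first Ptger3 probe without S1 (-0.0020, and 1.03 without S2). The cause was not tested.

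Scaling to the 75th percentile gave 692 probes higher and 760 lower in place of 775 and 563, 1 probe under an adjusted p of 0.05 in limma in place of 0, and 2 pathway genes lower in place of 1. Normexp gave 359 probes higher and 0 members called. The methods' t-test gave 514 and 172 and 0 members. Requiring all 6 arrays gave 342 lower. With the slide as a block 225 probes were lower, 1 member probe was higher and 2 pathway genes were lower, and within the slide of both strains, where C1 alone stands for its strain and is assumed to vary like the S rats, 443 and 188 probes and 1 member probe were called. With each rat left out in turn, probes called higher ranged from 476 to 2399 and lower from 186 to 1725, probes under the adjusted p from 0 to 5562, member probes higher from 0 to 6 and lower from 0 to 3, and pathway genes higher from 3 to 7 and lower from 1 to 8, the high ends without S2.

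With the replicate number as a block (replicate block) 791 probes were higher and 743 lower, and 3 pathway genes were lower. Equal numbers paired nothing, since the deviations of such rats correlated at -0.02, -0.13 and -0.06, and 0 of 6 rats correlated best with its own number.

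Signal over background limits Hpgds and Slco2a1, which were not measured on every array. No rat without AOM was on the arrays.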

Other observations

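The genes whose signal over the 6 rats was most like that of the 3 members of widest range were sought with each gene read at its brightest tested probe. For Hpgds, with a range of 7.64 on the log2 scale, they were Lime1 (Pearson r = 0.999), C11h21orf91 (0.999) and Sash3 (0.999). Lime1 read 9.69, 9.78 and 9.81 in C1, C2 and C3 and 10.51, 9.64 and 10.45 in S1, S2 and S3. For Ptges, with a range of 2.92, they were Lrig2 (0.997), Fes (0.997) and Dnase1l3 (0.996), and for Slco2a1, with a range of 2.82, RT1-T18 (0.999), Ccl17 (0.999) and Igsf6 (0.998). RT1-T18 read 11.89, 11.97 and 11.71 and then 13.01, 11.69 and 12.94. Sash3 and Ccl17 were well above background on 3 arrays each, Hpgds on 3 and Slco2a1 on 2, so that their likeness rests partly on readings too dim to be ranked. In each of these genes S1 and S3 were high and S2 was below them, and 1114 of 12393 genes had a Pearson r above 0.95 with Hpgds. With S1 and S3 standing apart from the other rats, a value of this size describes that contrast alone, and no p is given.

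Other cells of the colon wall were followed in the same way. The 5 tuft cell genes, a cell type that expresses Ptgs1 and Hpgds in the gut, had a median log2 fold change of 0.11 and 0 calls. Their summed signal was 2200, 2690 and 1480 in C1, C2 and C3 and 1150, 3000 and 2100 in S1, S2 and S3, with Avil, the brightest, at 9.54, 9.95 and 9.26 and then 8.76, 10.32 and 9.94. S1 and C3 were thus the low rats, and S1 was also the lowest rat at the first Ptgs1 probe. At the second Ptgs1 probe the lowest rat was S3. The part of tuft cells in the values of Ptgs1 was not tested. The median was 0.46 without S2 and -0.26 without S1. The 6 endothelial genes had a median of -0.26, or -0.15 without S2, and 0 calls, with Kdr between 10.10 and 10.92 in the congenic rats and 10.45 and 10.83 in the S rats. That median was -0.45 without S1 and -0.40 with the slide as a block. Without S2, 1 gene was called lower, in a fit that called 8.26% of all genes lower. The 6 neutrophil genes had a median of -0.52 and 0 calls, with Elane at 9.10, 7.12 and 6.64 and then 8.20, 9.44 and 8.47. Their median was unchanged without S2 but turned to 0.24 with the slide as a block, and it was at 0 over the 4 genes measured on all 6 arrays. It was -0.20 without S3 and -0.22 without C2, and 2 genes were called lower without C1 and 1 without C3.

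Of 5 adipocyte genes 1 was called higher and 0 lower, Adipoq, with a median of 0.79 and Fabp4, the brightest, at 8.77, 8.96 and 9.02 in the congenic rats and 7.65, 8.42 and 8.30 in the S rats. The median was 0.89 without S2, and the call was lost with the slide as a block and with the methods' t-test. Of the skeletal muscle genes 3 were measured on all 6 arrays, of which 1, Tnnt3, was called lower. The brightest, Ckm, read 13.89, 13.87 and 14.21 and then 12.79, 14.87 and 13.86. Mybpc1 and Myh1 were well above background on no congenic array but on all 3 S arrays. In S1, S2 and S3, Mybpc1 read 8.23, 7.63 and 7.80 and Myh1 6.46, 5.99 and 5.87. By the rule used for Hpgds their congenic means were 7.29-fold and 2.13-fold lower.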
